A study of Homo sapiens with 9 samples.

Results

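The cells carrying the second hairpin against the long noncoding RNA HUMT, labelled sh2-HUMT, were compared with cells carrying a control hairpin, labelled shNC, over every gene that passed an expression filter. The comparison held 6 of the 9 RNA sequencing libraries of the series, 3 in each group, and was chosen by group label alone. The other 3 libraries came from cells with the first hairpin, sh1-HUMT, and were kept in the statistical fit so that changes found with the second hairpin and not with the first could be set apart. The labels describe the cells of all groups as PC9/GR, a gefitinib-resistant lung adenocarcinoma line grown in RPMI 1640 with fetal bovine serum, and the hairpin as the one difference between groups. Gefitinib blocks the kinase of the epidermal growth factor receptor. No drug exposure, dose or time is given, and the hairpin sequences, the vector and the number of clones or cultures behind the 3 libraries of a group are not given in the sources used here. The p-values therefore measure the spread between these libraries, which may be technical.

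The headers of the count table name the lung adenocarcinoma line A549 and the word Si in place of PC9/GR and a hairpin, with group and replicate matching the labels. The design text of the series describes the knockdown of another RNA in a retinoblastoma line, which matches neither. The libraries are called here by their group names. CDKN2A, a tumour suppressor gene that A549 is known to lack, was at 0 to 0.134 CPM, the counts of a gene scaled to library totals of equal size, over the 9 libraries, and ALDH1A1, an aldehyde dehydrogenase known to be abundant in A549, was at 3720 to 3850 CPM. No reference library of either line was compared, so the identity of the line was not tested. Of the epithelial markers, KRT8 stood at 1450 to 1780 CPM and EPCAM at 7.42 to 10.6 CPM, while the lung lineage regulator NKX2-1 was at most 0.269 CPM. Library totals ran from 21891060 to 22159921 estimated counts, and the first principal component held 27.6% of the variance and separated the 3 shNC libraries from the 6 hairpin libraries. On the second, with 11.9%, sh1-HUMT replicate 2 stood at 37.2, the highest of the 9. Some markers of other cell types also moved with the groups. The summed level of 7 fibroblast markers, mainly COL1A1, was 23.3 to 28.1 CPM in shNC and 32.4 to 33.2 CPM in sh2-HUMT, with DCN and LUM at 2 counts or fewer in every library. The log2 change against shNC was 0.48 for COL1A1 (edgeR adjusted p = 3.5e-04). It was -0.09 for THY1, the next most abundant, -0.19 for COL1A2 and 0.86 for COL3A1 (adjusted p = 0.634, 0.753 and 0.138). The summed level of 5 endothelial markers was 1.32 to 1.70 CPM in shNC and 2.15 to 2.63 CPM in sh2-HUMT, mainly PECAM1 at 0.894 to 0.941 and 1.75 to 1.99 CPM, while KDR was at 0.138 to 0.282 CPM in shNC and 0 to 0.0905 CPM in sh2-HUMT. The 4 white blood cell markers found, almost wholly CD68, summed to 51.3 to 54.1 CPM in shNC and 38.1 to 40.3 CPM in sh2-HUMT, with PTPRC at most 0.223 CPM. Their part in the results was not tested, and in bulk RNA fewer cells of a type and less RNA per cell cannot be told apart.

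LINC00857, the gene of the targeted RNA HUMT, did not pass the test. It stood at 9.36, 9.86 and 8.51 CPM with shNC and at 8.75, 9.60 and 8.50 CPM in the sh2-HUMT libraries. The groups overlapped, and the log2 change was -0.05 (SE 0.0895, edgeR adjusted p = 0.740). The RNA level of the target therefore gives no check of the sh2-HUMT label.

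Several of the genes described here belong to the amino acid response. When amino acids run short or proteins misfold, kinases that phosphorylate the initiation factor eIF2 slow general translation while the transcription factor ATF4 is translated more. ATF4, often paired with a CEBP protein, then raises genes for amino acid synthesis, amino acid uptake and the aminoacyl-tRNA synthetases that load amino acids onto tRNA. Cancer cells are known to use the same genes to feed growth.

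With the second hairpin 6019 of 18540 tested genes (32.5%) were called against shNC, that is, they had a Benjamini-Hochberg adjusted p under 0.05 in edgeR's quasi-likelihood test, with no minimum fold. Of these 2956 were higher (15.9% of the genes tested) and 3063 lower (16.5%). Most changes were small: 3358 of the called genes (55.8%) changed by less than 1.25-fold, and 372 changed at least 2-fold, 179 up and 193 down. With the first hairpin 5923 genes (31.9%) were called against the same shNC libraries, so errors in shNC enter both comparisons. Set directly against each other, the hairpin groups differed at 53 genes (0.286%), with 20 higher (0.108%) and 33 lower (0.178%) in sh2-HUMT. That count fell to 1 without sh2-HUMT replicate 1, to 6 without sh2-HUMT replicate 2, to 9 without sh2-HUMT replicate 3, and to 16 and 27 without sh1-HUMT replicates 1 and 3. It was 155 without sh1-HUMT replicate 2, 24 without shNC replicate 1 and 29 with the replicate number as a replicate block. DESeq2 called 369 genes. At an unadjusted p under 0.05 the direct contrast held 2187 genes.

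**Figure D1:**
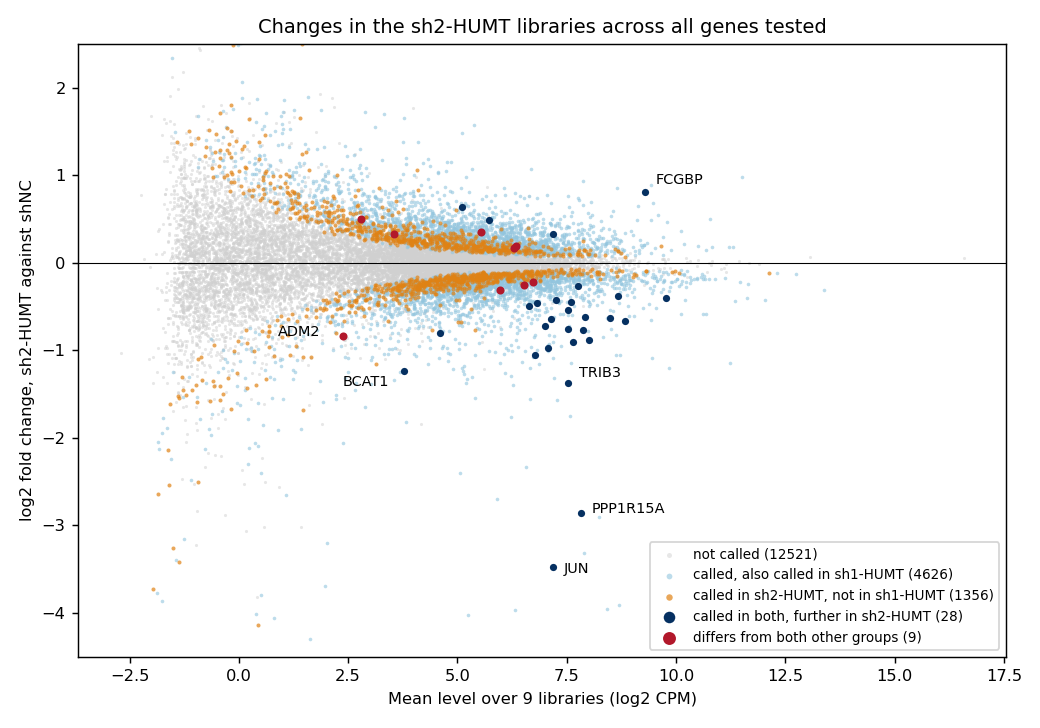
Log2 change of sh2-HUMT against shNC (vertical axis, ends at -4.5 and 2.5, with 40 genes outside them) over the mean log2 CPM of the 9 libraries (horizontal axis), 1 point a gene. Orange points, called with sh2-HUMT and not sh1-HUMT, hug the band of genes that were not called; the 28 dark blue genes, further from shNC in sh2-HUMT, lie mostly below 0, and the 9 red genes differed from both other groups.

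Of the 6019 genes called with sh2-HUMT, 1365 (22.7%) were not called in the same direction with sh1-HUMT, 680 of them higher and 685 lower. Their changes against shNC were small, with a median of 1.18-fold, 918 (67.3%) under 1.25-fold and 90 at 2-fold or more. A call in 1 comparison and none in the other does not show that the hairpins differ. Among the 1365 genes, 475 had an adjusted p under 0.1 with sh1-HUMT and 210 had one over 0.5, and 9 passed the direct test of sh2-HUMT against sh1-HUMT. In 542 of the 1365 genes all 3 sh2-HUMT libraries lay beyond all 6 others, as they did in 1539 (8.3%) of all genes tested; since sh2-HUMT entered the choice of the 1365 genes, nothing is read from the difference. Just inside the boundary of this set, RBM34, ABI1 and NARF had sh1-HUMT adjusted p-values of 0.05009, 0.05026 and 0.05027 by edgeR. Just outside it stood ZNF326 at 0.04985, and TMEM198B and TBC1D7 at 0.04997.

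The examples that follow were chosen after their values were seen, among protein-coding genes of this set that had a mean of at least 5 CPM, had all 3 sh2-HUMT libraries beyond the 6 others and did not pass the direct test. ODC1 and INTS7 fell furthest of these, by less than 2-fold. The 41 genes of the set that were lower by at least 2-fold therefore did not meet these conditions. ODC1, ornithine decarboxylase, is the rate-limiting enzyme of polyamine synthesis, and stood at 54.0, 52.0 and 52.0 CPM in shNC, 38.2, 45.5 and 45.4 in sh1-HUMT and 26.0, 35.2 and 31.8 in sh2-HUMT. INTS7, a subunit of the Integrator complex that trims small nuclear RNAs, stood at 22.8, 29.4 and 27.0 CPM in shNC, 20.4, 20.99 and 25.3 in sh1-HUMT and 15.7, 14.2 and 16.9 in sh2-HUMT. In both genes the sh2-HUMT libraries were the lowest and overlapped neither other group. Both changed by -0.76 on the log2 scale against shNC, with edgeR adjusted p-values of 0.0005 for ODC1 and 0.00045 for INTS7. Against sh1-HUMT neither passed, at adjusted p = 0.133 for ODC1 and 0.111 for INTS7. Smaller falls against shNC were found in SNTB1 (log2 change -0.52), a syntrophin that anchors membrane proteins, and ANK2 (-0.48), an ankyrin linking membrane to cytoskeleton.

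Among the higher genes of the set, CORO6, a coronin, stood at 10.7, 8.84 and 11.4 CPM in shNC, 12.02, 11.5 and 11.7 in sh1-HUMT and 15.8, 14.7 and 15.9 in sh2-HUMT. TNFSF15, a ligand of the tumour necrosis factor superfamily, stood at 9.22, 9.58 and 9.74 CPM in shNC, 11.9, 9.40 and 10.9 in sh1-HUMT and 13.0, 15.1 and 13.6 in sh2-HUMT. The sh2-HUMT libraries were highest in both genes, without overlap. The log2 changes against shNC were 0.58 for CORO6 and 0.54 for TNFSF15, with edgeR adjusted p-values of 0.00045 and 0.00102. Neither passed against sh1-HUMT, with adjusted p = 0.11 for CORO6 and 0.145 for TNFSF15. The transcription factor PAX8 (log2 change against shNC 0.60), the potassium channel subunit KCNS3 (0.54) and the nuclease subunit EME2 (0.71) were also higher.

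The higher and lower genes of this set differed in base composition. Transcripts of the higher genes had a median GC content of 57.3% (607 genes with a value) and those of the lower genes 44.7% (646 genes), beside 48.7% over the 15673 tested genes with a value. The split was wider than among all genes called with sh2-HUMT, where the medians were 52.98% for the higher and 46.8% for the lower. When GC content and transcript length were fitted in each library and corrected for, 401 of the 680 higher genes (59.0%) and 495 of the 685 lower genes (72.3%) were still called the same way against shNC. Over all called genes 2316 of 2956 higher (78.3%) and 2608 of 3063 lower (85.1%) were.

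**Figure D2:**
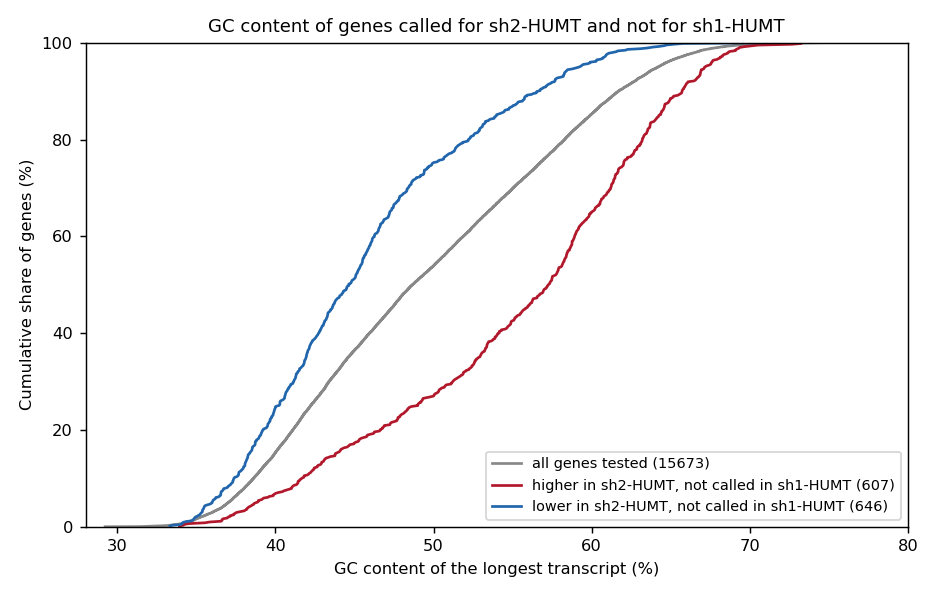
Cumulative share of genes (percent, vertical axis) over the GC content of the longest transcript (percent, horizontal axis) for all 15673 tested genes with a value and for the higher and lower genes called with sh2-HUMT and not with sh1-HUMT. The line of the higher genes lies to the right of that of all genes, with a median of 57.3%, and the line of the lower genes to its left, with a median of 44.7%.

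In 9 genes sh2-HUMT differed from both other groups, being called against shNC and, in the same direction, against sh1-HUMT, without a call in that direction for sh1-HUMT. The 4 lower genes were ADM2, SGPL1, TMX2 and TCF12, and the 5 higher genes were KIFC2, FBRSL1, RCN3, RHPN1 and RBM14-RBM4. These contrasts chose the genes and share the sh2-HUMT libraries, so their values describe the choice. In all 9 genes the 3 sh2-HUMT libraries lay beyond the 6 others.

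ADM2 encodes adrenomedullin 2, a secreted peptide of the calcitonin family, and is itself known as an ATF4 target. Its level was 6.12, 6.22 and 5.83 CPM in shNC, 5.70, 6.79 and 6.30 in sh1-HUMT and 3.01, 4.12 and 3.09 in sh2-HUMT. The first hairpin group overlapped shNC, and the second stood below both. ADM2 fell by 0.83 on the log2 scale against shNC (SE 0.138, edgeR adjusted p = 6.6e-04), and the log2 difference from sh1-HUMT was -0.88 (SE 0.138, adjusted p = 0.0247), or 1.84-fold. SGPL1, the lyase that breaks down sphingosine-1-phosphate, stood at 68.1, 69.4 and 68.9 CPM in shNC, 65.6, 63.9 and 65.7 in sh1-HUMT and 53.8, 55.7 and 56.9 in sh2-HUMT. Its log2 change was -0.31 against shNC (edgeR adjusted p = 3.2e-05) and -0.23 against sh1-HUMT (adjusted p = 0.0213).

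TMX2, a thioredoxin-related protein of the endoplasmic reticulum membrane, stood at 100.5, 96.1 and 100.3 CPM in shNC, 95.8, 95.1 and 94.5 in sh1-HUMT and 81.9, 83.9 and 83.9 in sh2-HUMT. TCF12, a basic helix-loop-helix transcription factor, stood at 112.7, 112.2 and 114.0 CPM in shNC, 110.7, 106.8 and 106.9 in sh1-HUMT and 98.1, 97.4 and 96.6 in sh2-HUMT. For both, the sh1-HUMT libraries lay just under shNC and the sh2-HUMT libraries well under both. The log2 differences from sh1-HUMT were -0.19 for TMX2 and -0.15 for TCF12, with edgeR adjusted p-values of 0.0247 and 0.0486. The TCF12 difference was lost in 14 of 17 alternatives, among them other normalizations, no filter on low counts and the correction for GC content and length (adjusted p up to 0.179).

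Of the higher genes, RHPN1 stood at 42.3, 43.1 and 39.7 CPM in shNC, 43.4, 42.4 and 46.3 in sh1-HUMT and 54.2, 53.7 and 51.5 in sh2-HUMT. RCN3, a calcium-binding protein of the endoplasmic reticulum lumen, stood at 11.5, 10.6 and 10.8 CPM in shNC, 9.84, 9.76 and 10.8 in sh1-HUMT and 14.3, 12.9 and 14.3 in sh2-HUMT. In both genes shNC and sh1-HUMT overlapped while sh2-HUMT stood above them. The log2 differences from sh1-HUMT were 0.27 for RHPN1 and 0.45 for RCN3, with edgeR adjusted p-values of 0.0437 and 0.0486.

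KIFC2, a kinesin motor, stood at 78.7, 77.9 and 74.4 CPM in shNC, 73.6, 68.7 and 68.1 in sh1-HUMT and 87.8, 85.4 and 86.5 in sh2-HUMT, so that the hairpin groups lay on opposite sides of the control. FBRSL1 stood at 76.9, 77.8 and 76.2 CPM in shNC, 76.8, 75.8 and 75.9 in sh1-HUMT and 88.6, 86.6 and 88.7 in sh2-HUMT. RBM14-RBM4, a readthrough transcript that shares sequence with RBM14 and RBM4 and whose reads the counting could split among them, stood at 7.06, 5.71 and 6.68 CPM in shNC, 5.97, 4.14 and 5.59 in sh1-HUMT and 9.24, 8.37 and 9.84 in sh2-HUMT. The sh2-HUMT libraries were the highest in each of these genes. With the correction for GC content and length the calls against shNC were lost for KIFC2 (edgeR adjusted p = 0.735) and FBRSL1 (adjusted p = 0.921), while all 4 lower genes kept theirs. The differences from sh1-HUMT were lost under that correction for KIFC2, FBRSL1, RCN3, RHPN1 and TCF12, and kept for the other 4 genes. The call of RBM14-RBM4 against shNC was lost without sh2-HUMT replicate 3 or shNC replicate 2, with an adjusted p of up to 0.0581. The whole set of 9 was unstable: it held 0 genes without sh2-HUMT replicate 1 or replicate 3, 1 without sh2-HUMT replicate 2 or sh1-HUMT replicate 1, 2 without shNC replicate 1, 4 without sh1-HUMT replicate 3, 36 without sh1-HUMT replicate 2 and 90 by DESeq2. In each of these leave-out fits all 9 genes kept the direction of their difference from sh1-HUMT, with an unadjusted p under 0.05 by edgeR. The same contrast in the same libraries chose the genes, so nothing is read from that.

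**Figure D3:**
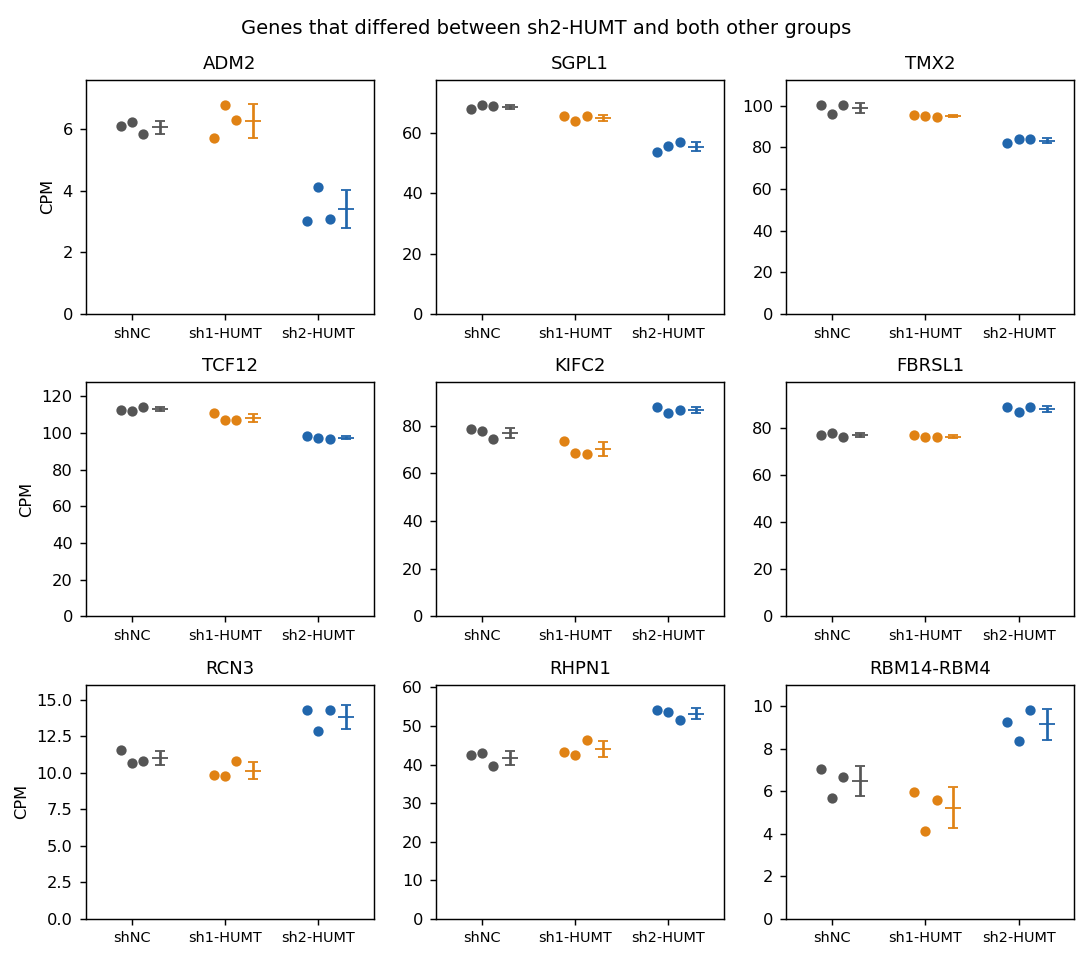
CPM in each of the 9 libraries for the 9 genes in which sh2-HUMT differed from both other groups, 1 panel a gene, each vertical axis starting at 0, with points for libraries and, beside them, the group mean and a bar of 1 SD (n = 3). In each panel the 3 sh2-HUMT points lie beyond the 6 others, below them for ADM2, SGPL1, TMX2 and TCF12 and above them for the other 5 genes.

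A further 28 genes were called the same way against shNC with both hairpins and lay further from shNC with the second. Of these 24 were lower and 4 higher, and the lower ones were mostly genes of amino acid supply and tRNA loading. The median log2 change of the 24 lower genes was -0.69 with sh2-HUMT and -0.47 with sh1-HUMT. All 28 calls against shNC held under every alternative tried except the 2-fold minimum, which 5 of them met. The call of the difference between the hairpins was less firm, since it was kept by 0 of the 28 genes without sh2-HUMT replicate 1, by 4 without sh2-HUMT replicate 2, by 7 without sh2-HUMT replicate 3, by 10 and 14 without sh1-HUMT replicates 1 and 3, and by 18 without shNC replicate 1. In those 6 fits all 28 genes kept their direction, each with an unadjusted p under 0.05 by edgeR. Nothing is read from that, since the same contrast chose the genes. DESeq2 kept 27 and the replicate block 20. The order of the 3 groups is part of the choice of these genes, and the values below describe it.

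Among the enzymes that make amino acids, BCAT1, the cytosolic aminotransferase of branched-chain amino acids, stood at 19.1, 21.4 and 18.7 CPM in shNC, 12.2, 13.4 and 14.03 in sh1-HUMT and 8.12, 8.19 and 8.77 in sh2-HUMT. ASNS, asparagine synthetase, stood at 165.8, 163.2 and 147.2 CPM in shNC, 97.6, 95.5 and 94.2 in sh1-HUMT and 80.2, 70.3 and 78.7 in sh2-HUMT. PSAT1, an aminotransferase of serine synthesis, stood at 276.2, 275.9 and 280.4 CPM in shNC, 168.3, 176.9 and 179.0 in sh1-HUMT and 148.2, 145.4 and 150.5 in sh2-HUMT. The 3 groups formed separate steps in each gene, with sh2-HUMT lowest. Against shNC the log2 changes with sh2-HUMT were -1.24 for BCAT1, -1.06 for ASNS and -0.91 for PSAT1. Against sh1-HUMT they were -0.66 (SE 0.0842, edgeR adjusted p = 0.0095) for BCAT1, -0.33 (adjusted p = 0.0486) for ASNS and -0.24 (adjusted p = 0.0093) for PSAT1. The ASNS difference was lost in 11 of 17 alternatives, and that of PSAT1 without sh2-HUMT replicate 1 or 2. MTHFD2, the mitochondrial folate enzyme that carries on from serine breakdown, stood at 309 to 316 CPM in shNC, 208 to 214 in sh1-HUMT and 181 to 187 in sh2-HUMT.

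Among the enzymes that load tRNA, the glycyl-tRNA synthetase GARS stood at 359.5, 344.3 and 355.3 CPM in shNC, 226.3, 223.6 and 227.5 in sh1-HUMT and 191.9, 190.1 and 194.8 in sh2-HUMT. The isoleucyl-tRNA synthetase IARS stood at 461.5, 453.3 and 444.0 CPM in shNC, 345.1, 339.8 and 337.9 in sh1-HUMT and 295.1, 289.9 and 290.7 in sh2-HUMT. XPOT, which exports mature tRNA from the nucleus, stood at 297.2, 296.3 and 305.1 CPM in shNC, 234.4, 227.2 and 225.1 in sh1-HUMT and 193.1, 197.5 and 196.0 in sh2-HUMT. No library of any of these 3 genes crossed into another group's range. The log2 differences from sh1-HUMT were -0.23 for GARS (edgeR adjusted p = 0.00575), -0.22 for IARS (adjusted p = 0.00575) and -0.23 for XPOT (adjusted p = 0.00654). Leaving out sh2-HUMT replicate 1 was the one alternative that ended the difference call of these 3 genes. TARS, AARS, YARS, MARS and EPRS, which load threonine, alanine, tyrosine, methionine and, for the last, glutamate and proline, followed, with log2 differences from sh1-HUMT of -0.22, -0.20, -0.17, -0.22 and -0.19. YARS, MARS and EPRS fell outside the rule for named genes and were added after their values were seen, as were PPP1R15A, SMAD2 and PTP4A1.

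The amino acid importers SLC7A1, SLC7A5 and SLC7A11 were among the 28. SLC7A1, which imports arginine and lysine, stood at 114.5, 117.4 and 116.6 CPM in shNC, 99.5, 98.4 and 98.8 in sh1-HUMT and 82.4, 80.2 and 85.7 in sh2-HUMT. SLC7A5, the LAT1 carrier of large neutral amino acids, stood at 1001, 1020 and 990.3 CPM in shNC, 873.8, 877.8 and 850.8 in sh1-HUMT and 751.8, 752.7 and 777.4 in sh2-HUMT. The groups were again separate, and the step from sh1-HUMT to sh2-HUMT was close in size to that from shNC to sh1-HUMT. The log2 change with sh1-HUMT against shNC was -0.23 for SLC7A1 and -0.21 for SLC7A5, and the log2 difference of sh2-HUMT from sh1-HUMT was -0.26 (edgeR adjusted p = 0.0093) and -0.19 (adjusted p = 0.0095). SLC7A11, the cystine importer, had a log2 change of -0.22 with sh1-HUMT and a further difference of -0.21 with sh2-HUMT (adjusted p = 0.0288).

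The stress regulators in the group had fallen far with both hairpins. JUN, a subunit of the AP-1 transcription factor, stood at 363.9, 362.9 and 357.7 CPM in shNC, 38.5, 42.6 and 39.0 in sh1-HUMT and 31.3, 32.1 and 33.8 in sh2-HUMT. TRIB3, a pseudokinase that restrains ATF4 and AKT signalling, stood at 302.2, 305.1 and 294.9 CPM in shNC, 131.9, 146.4 and 133.2 in sh1-HUMT and 115.3, 119.7 and 114.9 in sh2-HUMT. PPP1R15A, the phosphatase subunit that restores translation by acting on eIF2, stood at 507 to 539 CPM in shNC, 82.1 to 83.9 in sh1-HUMT and 71.8 to 73.1 in sh2-HUMT. Most of the distance from shNC was thus present with the first hairpin. The log2 difference of sh2-HUMT from sh1-HUMT was -0.30 for JUN, -0.23 for TRIB3 and -0.19 for PPP1R15A, with edgeR adjusted p-values of 0.0165, 0.0347 and 0.0309.

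The other lower genes were signalling and stress proteins: FAM129A, a stress-induced regulator of translation and cell death, STC2, a secreted stanniocalcin, EREG, a ligand of the EGF receptor family, the TGF-beta signal transducer SMAD2, the phosphatase PTP4A1 and the nucleolar RNA helicase DDX21. FAM129A stood at 30.6 to 32.2 CPM in shNC, 22.7 to 24.7 in sh1-HUMT and 17.4 to 18.8 in sh2-HUMT, and its log2 difference from sh1-HUMT of -0.39 (edgeR adjusted p = 0.015) was the second largest of the 28 after BCAT1. EREG stood at 164 to 168 CPM in shNC, 113 to 116 in sh1-HUMT and 100 to 101 in sh2-HUMT. The 4 higher genes were FCGBP, TCIRG1, B4GALNT4 and ARHGAP33. FCGBP, a mucus-associated protein that binds the Fc part of IgG, stood at 428.7, 429.9 and 459.1 CPM in shNC, 679.4, 644.4 and 666.0 in sh1-HUMT and 761.5, 747.1 and 806.1 in sh2-HUMT, with a log2 difference of 0.22 from sh1-HUMT (adjusted p = 0.0309). ARHGAP33, a GTPase-activating protein, stood at 26.3 to 27.8, 33.0 to 36.1 and 41.2 to 42.7 CPM in shNC, sh1-HUMT and sh2-HUMT. The differences from sh1-HUMT of all 4 higher genes, and of ASNS and SMAD2 among the lower ones, were no longer called after the correction for GC content and length, which left 22 of the 28. Over 17 alternatives the SMAD2 difference was lost in 15, among them other normalizations and other filters. That of TCIRG1 was lost in 12, of ARHGAP33 in 11, of B4GALNT4 in 10 and of FCGBP in 7. The median GC content was 65.6% for the higher and 44.6% for the lower genes.

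**Figure D4:**
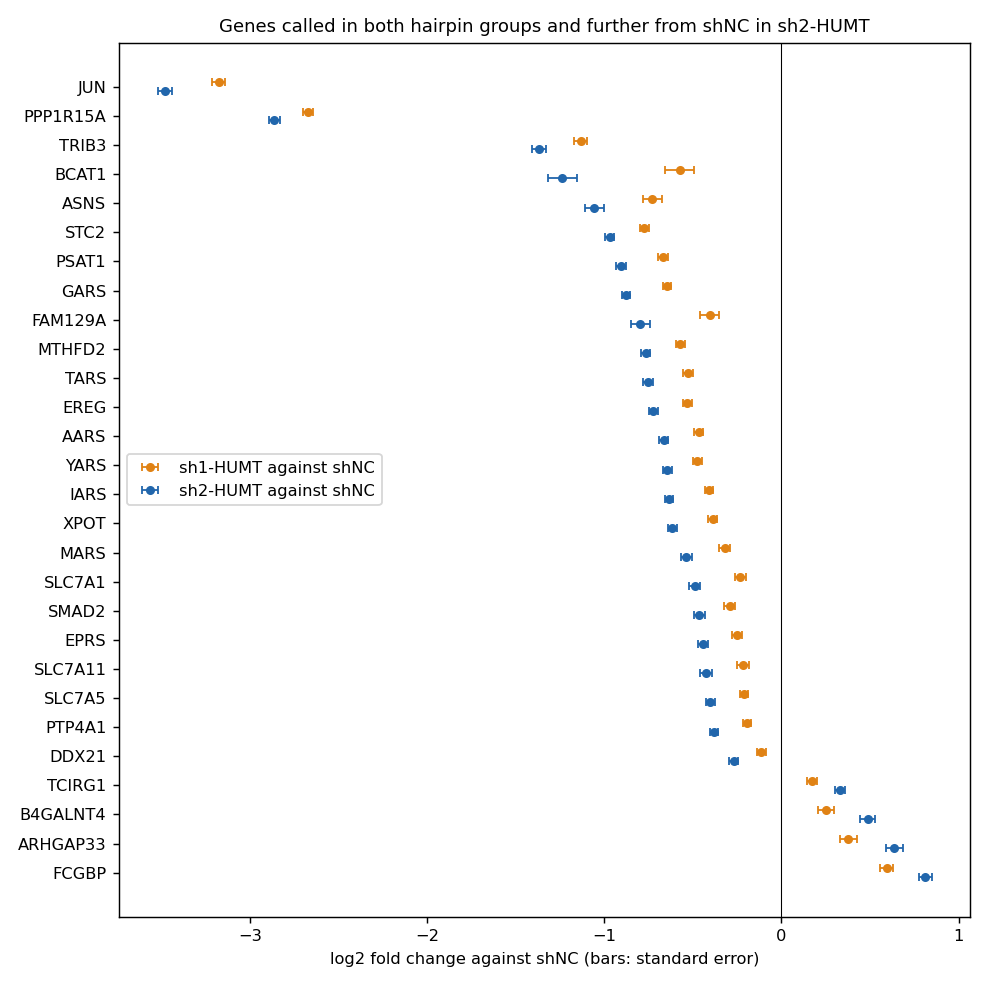
Log2 change against shNC for the 28 genes called with both hairpins and further from shNC with the second, 1 row a gene, with a point for each hairpin group and bars of 1 standard error. In each row the sh2-HUMT point lies further from 0 than the sh1-HUMT point; the longest step is that of BCAT1 and the largest change that of JUN.

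Promoter sequence was examined for the element that ATF4 and CEBP proteins are known to bind together. The letters TGATGNAA were searched on both strands in the 250 bases before the start of transcription, taken from RefSeq promoters of build GRCh38.p14, with the first start listed for each gene. A match was found in 4 of the 22 promoters available for the 24 lower genes (18.2%), in 214 of 13228 promoters of tested genes (1.62%) and in 870 of all 27305 (3.19%). Of the 9 genes apart from both groups 7 had a promoter and 0 held a match. The 4 matches are printed 5′ to 3′ on the gene's strand, since they belong to genes that carry the graded fall, with the matching letters in capitals and up to 30 bases on either side. All 4 genes lie on the minus strand. The windows are chr12:24949112-24949179 for BCAT1, chr7:97872439-97872506 for ASNS, chr9:92293698-92293740 for IARS and chr16:70289656-70289723 for AARS.
BCAT1: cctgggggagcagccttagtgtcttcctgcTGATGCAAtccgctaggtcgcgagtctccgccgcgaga
ASNS: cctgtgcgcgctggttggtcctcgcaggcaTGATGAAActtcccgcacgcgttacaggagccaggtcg
IARS: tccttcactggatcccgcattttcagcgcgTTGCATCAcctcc
AARS: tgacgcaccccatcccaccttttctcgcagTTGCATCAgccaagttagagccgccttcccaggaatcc
The match lay 48 to 41 bases before the start in BCAT1 and 68 to 61 bases before it in ASNS, in both cases in the written orientation. In IARS it lay 13 to 6 bases and in AARS 187 to 180 bases before the start, on the opposite strand. A match is a description of these letters and shows no binding. The letters of the heat shock element, GAANNTTC, overlap the match in the printed ASNS sequence, where they begin inside it. They stood in 9 of 21 promoters of the heat shock proteins (42.9%), in 5 of the 22 of the lower genes (22.7%) and in 563 of those of tested genes (4.26%).

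The gene lists placed these genes among their pathways. Of 26 tested genes of the ATF4 response 23 fell and 1 rose with sh2-HUMT, beside 16.5% lower and 15.9% higher over all genes, and the median log2 change was -0.75 with sh2-HUMT and -0.56 with sh1-HUMT. The list contains genes described above. Directly compared, 25 of the 26 lay lower in sh2-HUMT than in sh1-HUMT, as did 9116 of all 18540 genes, and 6 passed the direct test, beside 0.178% of all genes. The median log2 difference was -0.18 and stayed between -0.20 and -0.16 over the alternatives, while the number that passed was 0 without sh2-HUMT replicate 1, 1 without sh2-HUMT replicate 2 or 3, 3 without sh1-HUMT replicate 1, sh1-HUMT replicate 3 or shNC replicate 1, and 10 by DESeq2. DDIT3, the CHOP transcription factor of the stress response, stood at 205, 192 and 192 CPM in shNC, 42.6, 55.3 and 51.6 in sh1-HUMT and 37.1, 39.3 and 41.1 in sh2-HUMT. Its hairpin groups did not overlap, yet the log2 difference of -0.35 did not pass (edgeR adjusted p = 0.179). ATF4 itself had a log2 change of -0.63 with sh2-HUMT and -0.56 with sh1-HUMT. CTH, which makes cysteine, rose to a like extent with both hairpins, by 0.44 and 0.45. CBS, the enzyme before it, was called with sh2-HUMT alone, at 21.4, 32.9 and 26.8 CPM against 43.9, 44.1 and 41.7 CPM in shNC, and its sh1-HUMT and sh2-HUMT libraries overlapped.

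Of the 20 cytosolic tRNA synthetase genes 16 fell and 0 rose with sh2-HUMT, beside 16.5% lower and 15.9% higher over all genes. Their median log2 change was -0.50 with sh2-HUMT and -0.33 with sh1-HUMT. In 19 of them sh2-HUMT lay lower than sh1-HUMT, as in 9116 of all 18540 genes. The direct test was passed by 7, beside 0.178% lower over all genes. The number that passed was 0, 3 and 2 without sh2-HUMT replicates 1, 2 and 3. It was 3 and 4 without sh1-HUMT replicates 1 and 3, and 11 by DESeq2. KARS and QARS, for lysine and glutamine, were called with sh2-HUMT and not with sh1-HUMT, at log2 changes of -0.11 and -0.10. With sh1-HUMT the log2 changes were -0.02 for KARS and -0.08 for QARS. Neither differed from sh1-HUMT by the direct test (edgeR adjusted p = 0.219 and 0.918). KARS stood at 159, 164 and 166 CPM in shNC, 163, 159 and 161 in sh1-HUMT and 154, 151 and 148 in sh2-HUMT. Of 19 amino acid transporters 9 fell and 1 rose, the median was -0.14 with sh2-HUMT and -0.15 with sh1-HUMT, and 3 passed the direct test, or 0 without sh2-HUMT replicate 1 or 2, 1 without sh1-HUMT replicate 1 and 5 by DESeq2.

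In the ribosome biogenesis list 9 of 36 genes were called with the second hairpin alone, beside 7.36% of all genes tested; no list was tested as such. With sh2-HUMT 28 of the 36 fell and 0 rose, with sh1-HUMT 19 fell and 1 rose, and the median log2 change was -0.23 and -0.15. Over all genes 16.5% fell and 15.9% rose with sh2-HUMT. In 30 of the 36 sh2-HUMT lay lower than sh1-HUMT, as in 9116 of all 18540 genes. Of the 36, 1, DDX21, passed the direct test, beside 0.178% lower over all genes. An unadjusted p under 0.05 by edgeR was found in 15 of the 36, beside 2187 of all 18540 genes. DESeq2 called 8 of the 36, beside 369 of all genes. Without any 1 of the sh2-HUMT libraries, or without sh1-HUMT replicate 1 or 3 or shNC replicate 1 or 3, 0 passed. The 9 were NCL and NPM1, the abundant nucleolar proteins nucleolin and nucleophosmin, GAR1 of the pseudouridylation particles, BOP1 and PES1 of large subunit assembly, UTP15 and UTP20 of small subunit processing, the RNA polymerase I subunit POLR1B, and the acetyltransferase NAT10. NCL stood at 548, 533 and 538 CPM in shNC, 514, 512 and 545 in sh1-HUMT and 484, 498 and 465 in sh2-HUMT. UTP20 stood at 40.0, 40.2 and 43.2 CPM in shNC, 42.6, 38.4 and 41.0 in sh1-HUMT and 34.1, 37.1 and 36.1 in sh2-HUMT. In both genes shNC and sh1-HUMT overlapped and sh2-HUMT lay below, with log2 changes against shNC of -0.16 for NCL and -0.20 for UTP20 (edgeR adjusted p = 0.00194 and 0.0115). Against sh1-HUMT neither passed, at adjusted p = 0.153 and 0.182. NOP58, a core protein of small nucleolar ribonucleoproteins, showed the shared pattern, at 102 to 109 CPM in shNC, 58.4 to 64.4 in sh1-HUMT and 54.6 to 56.5 in sh2-HUMT.

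Translation factors and mitochondrial ribosomal proteins were also lower in part. Of 36 initiation and elongation factors 20 fell and 3 rose with sh2-HUMT, beside 16.5% lower and 15.9% higher over all genes. Called with sh2-HUMT alone were 4 of the 36, beside 7.36% of all genes. EIF2S2, the beta subunit of eIF2, stood at 194 to 206 CPM in shNC, 150 to 151 in sh1-HUMT and 131 to 141 in sh2-HUMT, with a log2 difference of -0.17 between hairpins that did not pass (edgeR adjusted p = 0.074). Of 41 mitochondrial ribosomal protein genes 22 fell and 1 rose, with 7 of the 41 called with sh2-HUMT alone, a fall count of 16 after the correction for GC content and length, and a median difference between the hairpins of -0.01.

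**Figure D5:**
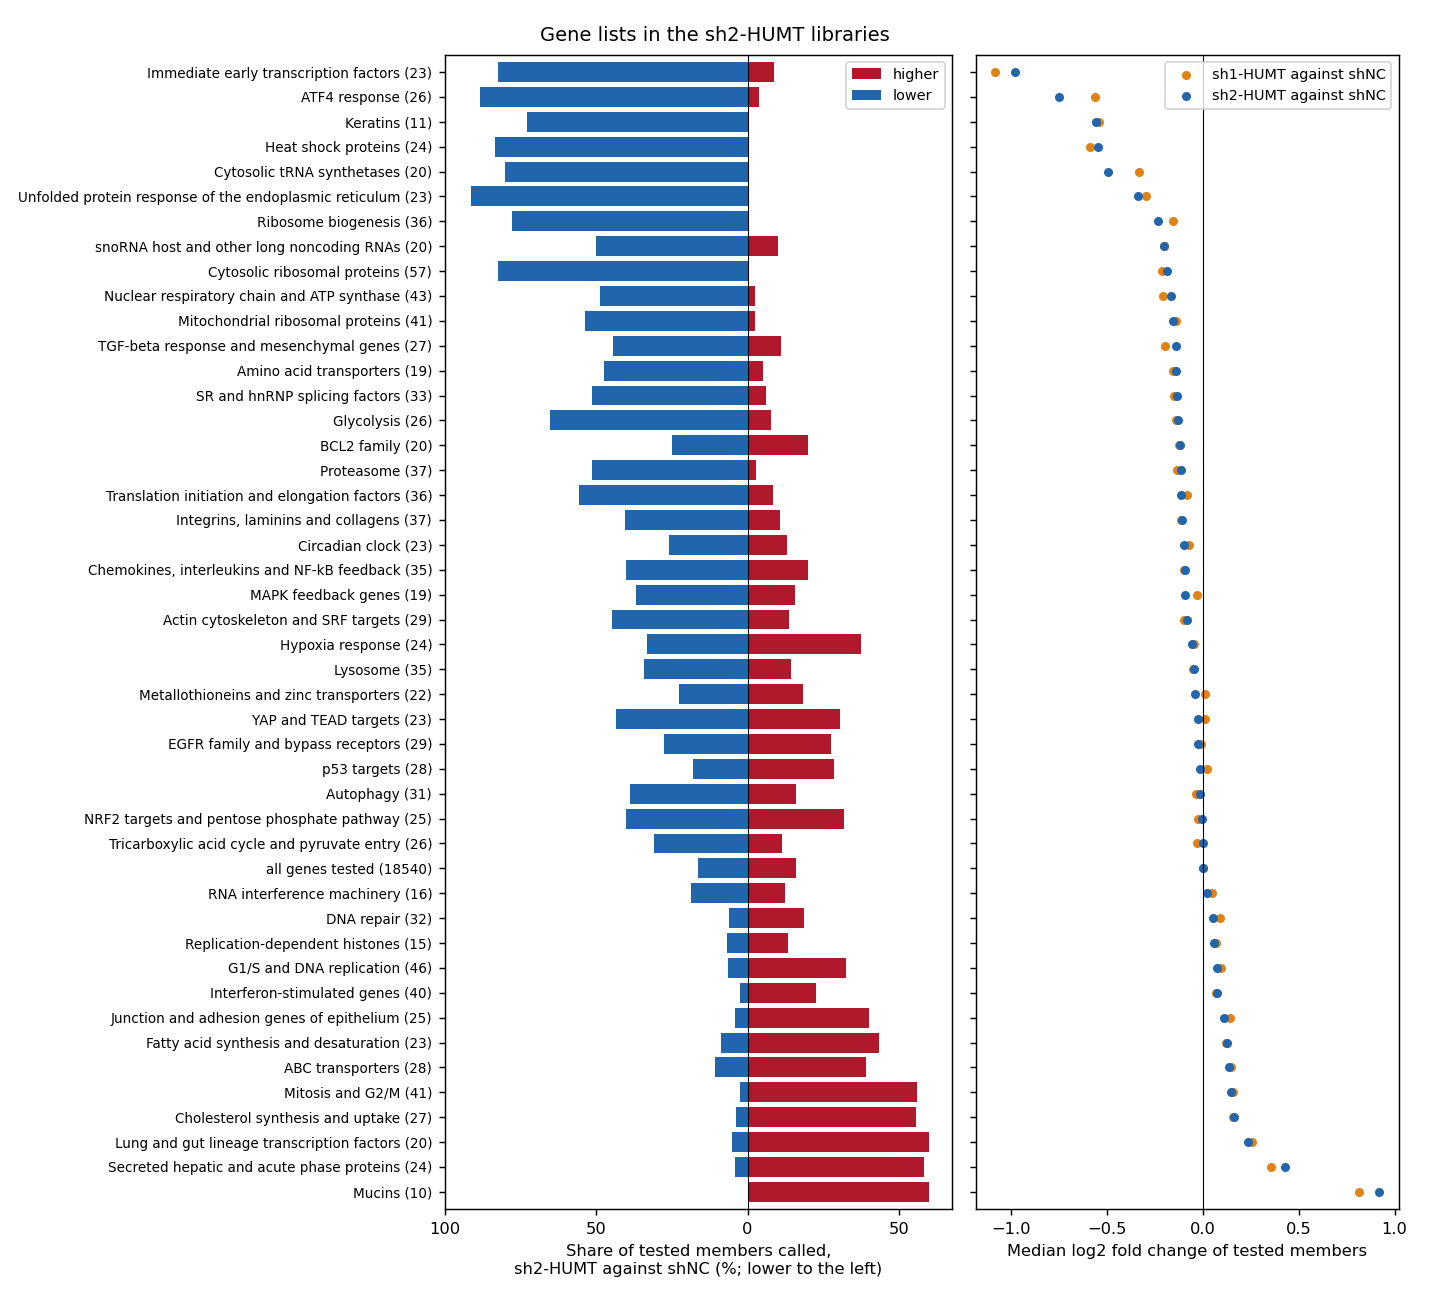
Left, the share of tested members of each gene list called against shNC with sh2-HUMT (percent, lower to the left and higher to the right, number tested in brackets); right, the median log2 change of the members with each hairpin, both against the same shNC libraries. The points of sh2-HUMT lie below those of sh1-HUMT in the ATF4 response (-0.75 and -0.56), the tRNA synthetases (-0.50 and -0.33) and ribosome biogenesis (-0.23 and -0.15).

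Few genes of the other stress lists passed the direct test between the hairpins. Over all genes 16.5% fell and 15.9% rose with sh2-HUMT, and 0.286% passed the direct test. Of 24 heat shock protein genes 20 fell with sh2-HUMT, and 2 were higher in sh2-HUMT than in sh1-HUMT. HSPA1A, an inducible HSP70 chaperone, stood at 1118, 1124 and 1120 CPM in shNC, 60.6, 55.4 and 57.7 in sh1-HUMT and 74.5, 76.1 and 74.1 in sh2-HUMT. Its near-identical copy HSPA1B, with which reads could be divided uncertainly, stood at 915 to 944, 42.2 to 50.6 and 58.3 to 61.6 CPM. Both were far below shNC with each hairpin and nearer to it with the second, by log2 differences of 0.37 for HSPA1A and 0.39 for HSPA1B (edgeR adjusted p = 0.00232 and 0.0213). Of 23 genes that answer misfolded protein in the endoplasmic reticulum 21 fell with each hairpin. In the direct test 0 of the 23 passed, with 4 at an unadjusted p under 0.05, beside 2187 of all 18540 genes. Of 23 immediate early transcription factors 19 fell and 2 rose with each hairpin, and JUN alone passed the direct test.

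Other lists bear on the use of hairpins and on the resistant line. Of 40 interferon-stimulated genes 9 rose and 1, ISG15, fell with sh2-HUMT, beside the background of 15.9% for rises and 16.5% for falls, with a median log2 change of 0.08. Called with the second hairpin alone were IFITM1, IFITM3, IFIT1 and HERC5, 4 of the 40, beside 7.36% of all genes. With sh1-HUMT 10 of the 40 rose and 1 fell, and 0 passed the direct test between the hairpins. Of 16 genes of the RNA interference machinery 2 rose and 3 fell, so that 31.2% were called, beside 32.5% of all genes. DGCR8, a partner of Drosha in microRNA processing, stood at 17.0, 18.4 and 18.7 CPM in shNC, 16.5, 16.3 and 17.3 in sh1-HUMT and 14.8, 15.5 and 14.98 in sh2-HUMT. It was called with sh2-HUMT alone (log2 change -0.25, edgeR adjusted p = 0.00849). Its log2 change with sh1-HUMT was -0.11, and the direct test between the hairpins did not pass (adjusted p = 0.402). In the list of EGFR family and bypass receptors, 8 of 29 rose and 8 fell. That was 55.2% called, beside 32.5% of all genes, with a median log2 change of -0.02. Of the 29, 2 were called with sh2-HUMT alone, beside 7.36% of all genes. TGFA, a ligand of EGFR, stood at 19.5, 19.1 and 19.7 CPM in shNC, 17.9, 15.96 and 17.1 in sh1-HUMT and 14.7, 16.6 and 13.2 in sh2-HUMT, and MET, a receptor kinase known for bypassing EGFR inhibitors, at 306 to 319, 297 to 307 and 283 to 295 CPM. Both were called with sh2-HUMT alone, at log2 changes of -0.39 and -0.12, and neither differed from sh1-HUMT by the direct test (adjusted p = 0.372 and 0.342).

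The cell cycle lists rose in part with both hairpins. Over all genes 15.9% rose and 16.5% fell with sh2-HUMT, and 7.36% were called with sh2-HUMT alone, beside which the counts of this paragraph stand. In the direct test 0.286% of all genes passed, and 2187 of 18540 had an unadjusted p under 0.05. Of 41 genes of mitosis and G2/M 23 rose and 1 fell with sh2-HUMT, with 1 call not shared, and of 46 genes of G1/S and replication 15 rose and 3 fell, with 4 not shared. The median log2 changes were 0.15 and 0.08, and no gene of either list passed the direct test, with 2 of 41 and 7 of 46 at an unadjusted p under 0.05 by edgeR. Of 32 DNA repair genes 6 rose and 2 fell with sh2-HUMT, so that 25.0% were called beside 32.5% of all genes. With sh1-HUMT 13 rose and 1 fell, and 0 passed the direct test, with 6 at an unadjusted p under 0.05 by edgeR. Of 10 mucins 6 rose and 0 fell, with MUC13 called with sh2-HUMT alone, and of 11 keratins 0 rose and 8 fell. MUC13 did not differ from sh1-HUMT by the direct test (edgeR adjusted p = 0.389).

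The remaining 16 genes of the direct test had been moved by the first hairpin; apart from HSPA1A and HSPA1B, which the rule for named genes holds, those named here were chosen after their values were seen. In 13 of them sh1-HUMT was called against shNC and sh2-HUMT was not. USP7, a deubiquitinase, stood at 48.2, 40.9 and 52.4 CPM in shNC, 31.7, 30.8 and 25.0 in sh1-HUMT and 46.4, 46.1 and 47.8 in sh2-HUMT. The sh2-HUMT libraries lay within the range of shNC for USP7, and the log2 change against shNC was -0.01 (edgeR adjusted p = 0.95). In the other 3, LAMB3, HSPA1A and HSPA1B, both hairpins were called lower and sh2-HUMT lay nearer to shNC. LAMB3, a chain of laminin 332, stood at 66.8 to 68.7 CPM in shNC, 48.6 to 49.7 in sh1-HUMT and 55.2 to 57.6 in sh2-HUMT.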

How the data were processed

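RNA from 9 libraries, 3 each of shNC, sh1-HUMT and sh2-HUMT, was measured on a BGI sequencing platform, per the labels' protocols. The authors deposited 1 table of estimated counts per gene, in the form RSEM gives, per the file headers, for 27059 entries, of which 91.3% held a value more than 0.005 from a whole number. Per the submitters' processing notes the tools were RSEM 1.2.12, DESeq2 1.4.5, Bowtie2 2.2.5 and HISAT2 2.0.4, with no roles stated; the genome build, annotation and use of strand are not given in the sources used here, so reads of a gene and an overlapping antisense gene cannot be told apart. The 15 value columns that match no sample were not used.

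Estimated counts were rounded and fitted with edgeR 4.0.16 (R 4.3.3; limma 3.58.1) over all 9 libraries: filterByExpr, TMM normalization, robust quasi-likelihood test, Benjamini-Hochberg adjustment over 18540 genes. CPM values use TMM-scaled totals (factors 0.968 to 1.02) and compare libraries within a gene, not genes. The biological coefficient of variation was 7.02%. The script was tested on simulated data. Alternatives were other normalizations, other filters, DESeq2 1.42.0, a minimum fold, each library left out, the 2 groups alone, a replicate block and, added after seeing the data, an offset per library for GC content and transcript length (values for 84.5% of tested genes) and leaving out the 2 most abundant entries.

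Genes were named by a rule over genes with a mean of at least 5 CPM: up to 15 highest and 15 lowest that differ from both groups and up to 10 and 10 further from shNC, each with the 3 sh2-HUMT libraries beyond the 6 others; the 5 highest and 5 lowest changes against shNC; up to 4 called members of each list; and LINC00857. Others are said to be chosen after their values were seen, which also holds for genes given as examples from a list beyond its first 4 and for marker genes. The comparison, the lists and the rule were chosen with earlier results of these data known. Promoters came from the RefSeq table of GRCh38.p14 (35116 entries, 27305 genes).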

Additional observations from a re-analysis of the deposited data

Results flagged for a closer look

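KIFC2 was singled out because the hairpin groups moved in opposite directions from shNC and the test of the difference between them passed. Against shNC its log2 change was 0.17 with sh2-HUMT (edgeR adjusted p = 0.00496) and -0.13 with sh1-HUMT (adjusted p = 0.0193), and the difference was 0.30 (adjusted p = 0.0095), with all 3 sh2-HUMT libraries above and all 3 sh1-HUMT libraries below the shNC libraries. After the correction for GC content and transcript length the difference was no longer called.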

How the results depend on the processing

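Leaving out each library in turn gave 4881 to 6240 genes called for sh2-HUMT against shNC (2364 to 3009 higher, 2416 to 3231 lower) and 915 to 1833 not called with sh1-HUMT (434 to 910 higher, 442 to 938 lower). The genes apart from both groups numbered 0 to 36 (0 to 22 higher, 0 to 14 lower), and those further from shNC 0 to 39 (0 to 8 higher, 0 to 31 lower). DESeq2 gave 804 genes not called with sh1-HUMT (341 higher), 90 apart from both groups (49 higher, 41 lower) and 115 further from shNC (46 higher, 69 lower). With the correction for GC content and length 4 genes were apart from both groups (1 higher), and 0 of the genes further from shNC were higher. The replicate block gave 5 apart from both groups (1 lower) and 1 higher gene further from shNC, and upper-quartile normalization gave 2 higher genes further from shNC. A minimum of 2-fold against shNC, set for each hairpin, left 372 genes called (179 higher, 193 lower). Not called with sh1-HUMT were 142 (81 higher, 61 lower). It left 2 apart from both groups (0 higher, 2 lower) and 3 further from shNC (0 higher, 3 lower). Under this minimum a gene called with sh1-HUMT below 2-fold counted as not called with it. Of the 9 genes apart from both groups in the main fit 0 changed 2-fold, so these 2 came from the 28 further from shNC. The causes were not tested. Deviations from the group mean correlated at -0.02 to 0.05 between same-numbered libraries of different groups. Between differently numbered ones the correlations were -0.06 to 0.04. With 3 libraries a group these values do not settle whether the numbers stand for a pairing. No named gene changed direction. More genes were higher than lower, not the reverse, with upper-quartile normalization (3255 and 2731) and without the 2 most abundant entries (3043 and 2975). The same held without shNC replicate 1 (2570 and 2453), replicate 2 (2614 and 2590) or replicate 3 (2577 and 2507). It also held without sh2-HUMT replicate 2 (2483 and 2416). Some other genes, taken by the naming rule or after their values were seen, lost the call against shNC in at least 1 alternative. They were AGO3, HIST1H1C, HIST1H2AC, PRKDC, SMIM1 and SPATA5. The 3 libraries a group limit the precision of small differences between the hairpins.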

Other observations

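One entry with a provider identifier and no gene name, BGIG9606_54385, had 0 counts in all 3 shNC and all 3 sh1-HUMT libraries and 27, 87 and 33 counts in the sh2-HUMT libraries. It was called against shNC (edgeR adjusted p = 0.00253) and not against sh1-HUMT (adjusted p = 0.0743). Its fold has no measured denominator, and the sources used here do not say what the entry stands for.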
